A study of Mus musculus with 20 samples.

Results

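The nuclear genes of the mitochondrial respiratory chain were followed, complex by complex, through diseased, nerve-crushed and healthy mouse muscle. Members were all probe sets whose only gene symbol in the platform annotation begins with Nduf, Uqcr, Cox4 to Cox8 or Atp5, or is Sdha, Sdhb, Sdhc, Sdhd, Cyc1 or Cycs. This rule took 145 of the 10748 probe sets of the deposited table, for 83 of its 6603 genes, and used no measured value. A total of 81 member genes had a signal above the filter on low values: 38 of complex I, 4 of complex II, 9 of complex III, cytochrome c, 12 of complex IV and 17 of complex V.

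The respiratory chain sits in the inner mitochondrial membrane and passes electrons from NADH and succinate to oxygen. Complex I takes them from NADH and complex II from succinate, complex III hands them to the mobile carrier cytochrome c, and complex IV delivers them to oxygen. Complexes I, III and IV pump protons, and the returning protons drive complex V, the ATP synthase. Oxidative muscle fibres hold more of these proteins than glycolytic fibres, and in complex IV several small subunits exist as a muscle isoform and an isoform of other tissues. Subunits encoded in mitochondrial DNA fall outside the rule.

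The study set muscle of a mouse model of amyotrophic lateral sclerosis, a degenerative disease of motor neurons, beside muscle denervated by injury. Each of 20 arrays measured 1 muscle sample, and there were 5 groups of 4. The first 2 groups were gastrocnemius, from the calf, and triceps, from the upper fore limb, of mice with the transgene humanSODG93A, called SOD1 here, at a symptomatic age of 14 weeks. The third was gastrocnemius of mice whose sciatic nerves had been crushed for 30 s at 12 weeks and that were killed 2 weeks later, called crush. The last 2 were both muscles of non-transgenic mice of 14 weeks, called NTg. All mice were female C57BL/6. The promoter, copy number and source line of the transgene, and the genotype of the crushed mice, were not given in the sources used here. No sham-operated group was analysed. The titles call the replicates biological without naming the mouse behind each number, so both muscles of a group may share mice.

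Values are log2 signals, and every change below is a difference of 2 group means on that scale, with n = 4 per group and its standard error (SE) from the fit with limma. A gene was called when its p, adjusted by Benjamini-Hochberg over all 7523 probe sets tested, was under 0.05. Array medians lay between 6.61 and 6.76. Each array's correlation across genes with the mean of the other 3 arrays of its group was 0.942 to 0.986, except for crush replicate 4 at 0.913. That array stood apart, and the members' counts and medians in comparisons with the crush group are given with and without it. The 7 skeletal muscle markers (such as Acta1, Ckm and Ttn) were high on all 20 arrays, with linear signals that summed to between 16040 and 51020. One description calls NTg triceps replicate 4 a gastrocnemius sample, while its title, source and tissue labels say triceps, and the titles were followed.

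Respiratory chain genes gave bright signals, which do not rank RNA levels between genes since probe sets bind with different strength. The median member had a mean log2 signal of 11.02, against array medians below 6.76. Within complex I the means ran from 6.18 for Ndufb1 to 11.80 for Ndufb9, and within complex V from 10.80 for Atp5g2 to 12.15 for Atp5g3. Cox7c, a small complex IV subunit, and Ndufaf7, a complex I assembly factor, lay below the filter and were not tested. Cox7c was at 4.25, 3.82, 4.92 and 3.93 in SOD1 gastrocnemius, 3.74, 4.16, 4.54 and 4.42 in SOD1 triceps, and 2.74 to 5.32 over the crush arrays, against 4.09 to 4.85 in NTg gastrocnemius and 3.97 to 4.67 in NTg triceps. Ndufaf7 was at 5.69 to 6.17 in SOD1 gastrocnemius, 5.26 to 5.93 in SOD1 triceps and 5.98 to 6.28 after crush, against 5.18 to 5.83 in NTg gastrocnemius and 5.46 to 5.81 in NTg triceps. Both genes overlapped between SOD1 and NTg muscle, and for Ndufaf7 every crush array lay above every NTg gastrocnemius array.

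In gastrocnemius of SOD1 mice, 1 of the 81 member genes was called against NTg gastrocnemius, and the chain as a whole lay slightly lower. Over all genes tested, 584 of 4832 (12.1%) were called in this comparison, 5.77% as lower. Of the 81 members, 76 had a lower mean in SOD1 muscle, where 49% of all genes did, with a median log2 change of -0.15, where the median of all genes was 0.01. At an unadjusted p under 0.05, 2 members were lower, where 14% of all genes were. By complex the medians were -0.17 (complex I), -0.23 (complex II), -0.15 (complex III), -0.07 (complex IV) and -0.15 (complex V), and Cycs, which encodes cytochrome c, changed by -0.16 (SE 0.18, adjusted p = 0.599). With quantile normalization between arrays 66 of 81 were lower and the median was -0.12. On the deposited values 179 of the 296 other genes with a mean log2 signal of at least 10 were lower, with a median of -0.07. That level was chosen after the values were seen, and the 71 members above it had a median of -0.16.

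The called gene was Ndufaf5, an assembly factor that in human cells hydroxylates an arginine of the complex I subunit NDUFS7. It was at 7.23, 6.34, 6.40 and 5.93 in SOD1 gastrocnemius, against 7.52, 7.15, 7.25 and 7.59 in NTg gastrocnemius. The groups overlapped: the highest SOD1 array lay above the lowest NTg array. Ndufaf5 fell by 0.90 (SE 0.28, adjusted p = 0.0409 by limma), to 0.536 of the NTg signal. The call rested on single arrays: without SOD1 replicate 2, 3 or 4, or without any NTg array, the adjusted p lay between 0.0629 and 0.159. In SOD1 triceps the same gene was at 7.22, 7.39, 6.40 and 6.32, against 7.68, 7.70, 7.23 and 7.34 in NTg triceps, a change of -0.66 (SE 0.28) that did not pass the test (adjusted p = 0.285).

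Ndufaf4, another assembly factor, gave a different result by each probe set. It changed by -0.01 in SOD1 gastrocnemius by its brighter probe set (adjusted p = 0.971). Its dimmer probe set was at 7.19, 6.83, 7.45 and 6.67 in SOD1 gastrocnemius, all below the 7.67, 7.65, 7.86 and 7.61 of NTg gastrocnemius, and fell by 0.66 (SE 0.20, adjusted p = 0.0339). This gene was singled out after its values were seen. With it 2 of 142 member probe sets were called, where 12% of all probe sets were. Of the 42 member genes with several probe sets, 13 had probe sets of opposite sign in this comparison.

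Among the catalytic subunits of complex I, Ndufs7, which carries the iron-sulfur cluster next to the quinone site, came nearest to the threshold. It was at 11.10, 10.75, 10.70 and 10.47 in SOD1 gastrocnemius, against 11.09, 11.15, 11.22 and 11.18 in NTg gastrocnemius. Replicate 1 of the SOD1 group lay inside the NTg range and the other 3 arrays below it. The change was -0.40 (SE 0.18, adjusted p = 0.135). Without crush replicate 4, whose spread enters the common fit, Ndufs7 fell by 0.40 with an adjusted p of 0.0358, and 2 members were called in this comparison, where 8.88% of all genes fell. Ndufs1, the large iron-sulfur subunit, changed by -0.19 (SE 0.22) and Ndufv1, which binds NADH, by 0.01 (SE 0.19).

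In complex II, both membrane anchors were nearest to the threshold: Sdhc changed by -0.32 (SE 0.17, adjusted p = 0.233), Sdhd by -0.27 (SE 0.21, adjusted p = 0.415), the flavoprotein Sdha by -0.10 (SE 0.17) and the iron-sulfur subunit Sdhb by -0.19 (SE 0.22). In complex III the hinge subunit Uqcrh was at 10.92, 10.91, 10.93 and 10.51 in SOD1 gastrocnemius, below the 11.12, 10.94, 11.26 and 11.02 of NTg gastrocnemius, with a change of -0.27 (SE 0.21, adjusted p = 0.407). Uqcr10, a small subunit, changed by -0.21 (SE 0.18), Cyc1 (cytochrome c1) by -0.21 (SE 0.21) and Uqcrfs1 (the Rieske iron-sulfur protein) by -0.15 (SE 0.17).

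In complex V, Atp5g2, 1 of 3 genes for the proton-carrying c ring, was at 10.73, 10.77, 10.65 and 10.49 in SOD1 gastrocnemius, all below the 10.89, 11.02, 10.92 and 10.93 of NTg gastrocnemius (change -0.28, SE 0.15, adjusted p = 0.206). Atp5o, which ties the stalk to the catalytic head, changed by -0.30 (SE 0.17, adjusted p = 0.262). The catalytic subunits Atp5a1 and Atp5b changed by -0.16 (SE 0.19) and -0.14 (SE 0.16). In all, 6 of 81 members had every SOD1 array below every NTg array, where 12.5% of all genes did so. These were Ndufa5, Ndufc1, Ndufs3, Ndufs5, Uqcrh and Atp5g2.

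Cox6a1, the complex IV subunit isoform of tissues other than heart and skeletal muscle, was the single member with every SOD1 array higher, where 13.3% of all genes were. It was at 9.22, 9.53, 9.45 and 9.54 in SOD1 gastrocnemius, against 8.93, 9.19, 8.85 and 9.00 in NTg gastrocnemius. The change of 0.44 (SE 0.29) had an adjusted p of 0.325. In the fit of the compared arrays alone, where the spread of the triceps and crush arrays does not enter, the adjusted p was 0.0153.

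**Figure D1:**
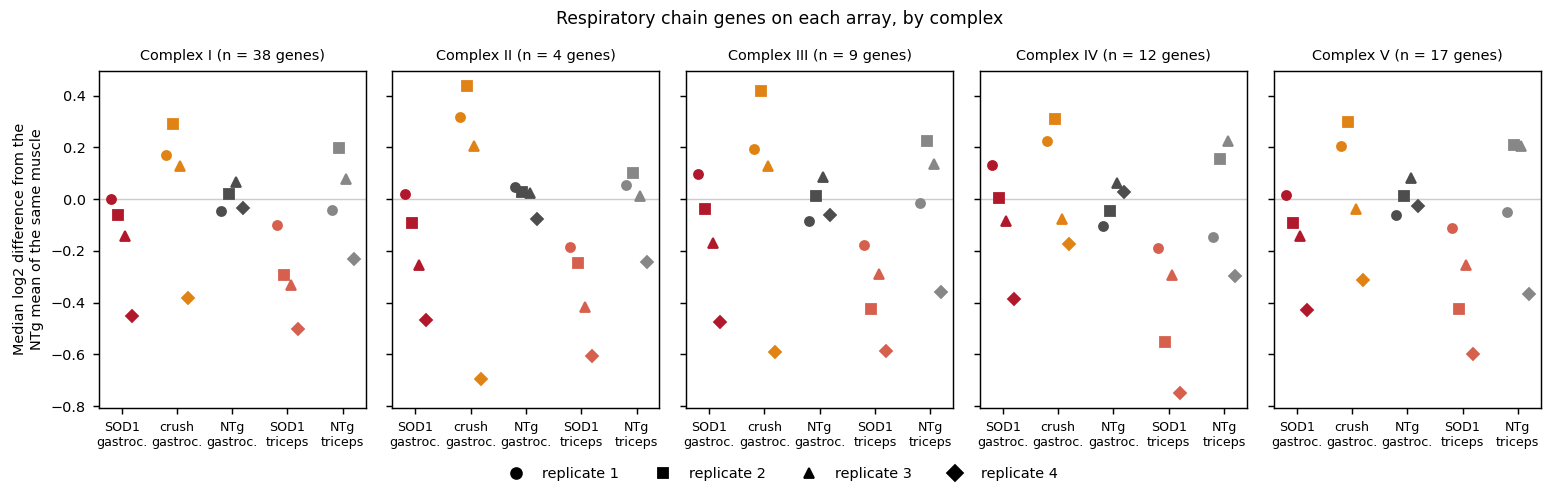
Each point is 1 array, placed at the median log2 difference of the genes of a complex from the NTg mean of the same muscle (y axis), by group (x axis), with 1 panel per complex and the marker shape giving the replicate number. SOD1 triceps arrays lie below 0 in all 5 panels. Replicate 4 is the lowest array in each panel in every group except NTg gastrocnemius.

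The median in gastrocnemius depended on 1 array. The members' median difference from the NTg gastrocnemius mean was 0.03, -0.06, -0.13 and -0.44 on the 4 SOD1 arrays, against -0.05, 0.01, 0.08 and -0.03 on the NTg arrays. Replicate 4 was lowest by far, and replicate 1 lay inside the NTg range. Without SOD1 replicate 4 the median change was -0.05. On replicate 4 every complex was low, at -0.45 (complex I), -0.47 (complex II), -0.48 (complex III), -0.39 (complex IV) and -0.43 (complex V). The same array had a skeletal muscle marker sum of 26650, against 39570 to 44570 on the other 3 SOD1 gastrocnemius arrays and 27780 to 42940 on the NTg arrays, and the part of this in the result was not tested. In whole muscle, fewer fibres and less RNA per fibre cannot be told apart.

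Cells other than muscle fibres also differed between these groups. All 6 tested macrophage markers rose in SOD1 gastrocnemius (C1qa, C1qb, Csf1r, Lgals3, Ctss and Adgre1), with a median change of 1.07, and the 7 on the array summed to 1033 to 1551 in linear signal, against 493 to 669.2 in NTg gastrocnemius. Among the 5 tested endothelial markers none passed the test, with a median of -0.08. The part of these cells in the members' values was not tested.

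In triceps of SOD1 mice the chain had lower means by the brightest probe set of each gene, and no single gene passed the test. Of the 142 member probe sets 138 were lower, and 4 of the 42 genes with several had probe sets of opposite sign. On the deposited values all 81 member genes had a lower mean in SOD1 than in NTg triceps (74 with quantile normalization), with a median of -0.36, where 50% of all genes were lower and the median of all genes was 0.00. By limma none of the 81 was called at an adjusted p under 0.05, and 0.29% of all genes were. At an unadjusted p under 0.05, 40 of 81 members were lower and 0 higher, where 5.75% of all genes were lower and 9.5% higher. Complex IV had the lowest median of the complexes, at -0.43, and complex I the smallest departure, at -0.31. Complexes II, III and V were at -0.36, -0.40 and -0.36.

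This shift was smaller under another scaling. With quantile normalization between arrays the median was -0.16, 74 of 81 members were lower, 6 were lower at an unadjusted p under 0.05, and complex IV was at -0.12, above complex I at -0.17. With the 75th percentile of each array set equal, all 81 were again lower and the median was -0.42. The signal level moved with the result: of the 296 other genes with a mean log2 signal of at least 10, a level chosen after the values were seen, 222 were lower in SOD1 triceps with a median of -0.17, and with quantile normalization 150 were, with a median of 0.00. The 71 members above that level had a median of -0.37, or -0.15 with quantile normalization.

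The arrays of the groups overlapped. The members' median difference from the NTg triceps mean was -0.12, -0.39, -0.33 and -0.60 on the SOD1 arrays, against -0.08, 0.20, 0.15 and -0.29 on the NTg arrays. SOD1 replicate 1 and NTg replicate 4 lay in each other's range, and the other 3 arrays of each group did not. Without NTg triceps replicate 4 the median change was -0.46, and without SOD1 triceps replicate 4 it was -0.28. Only 3 of 81 members had every SOD1 array below every NTg array, where 2.61% of all genes did: Atp5d, Ndufb10 and Uqcrc1.

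Cox6a2, the muscle isoform of a regulatory complex IV subunit, had the largest change of the 12 complex IV genes. It was at 12.05, 11.44, 11.78 and 11.47 in SOD1 triceps, against 12.21, 12.36, 12.74 and 11.96 in NTg triceps. The lowest NTg array lay below the highest SOD1 array, and the change was -0.63 (SE 0.21, adjusted p = 0.211). Cox7a2 changed by -0.44 (SE 0.16, adjusted p = 0.221), Cox4i1 by -0.43 (SE 0.17) and Cox5a by -0.43 (SE 0.20), both of them subunits that surround the mitochondrially encoded core. With quantile normalization these changes were -0.24 for Cox6a2, -0.03 for Cox7a2, -0.17 for Cox4i1 and -0.04 for Cox5a.

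Atp5d, the delta subunit in the central stalk of the ATP synthase, was at 11.15, 10.88, 11.12 and 10.90 in SOD1 triceps, all below the 11.26, 11.65, 11.85 and 11.16 of NTg triceps (change -0.47, SE 0.16, adjusted p = 0.213). Atp5j2, a subunit of the membrane sector, changed by -0.40 (SE 0.15, adjusted p = 0.231), and the catalytic Atp5a1 and Atp5b by -0.36 (SE 0.19) and -0.33 (SE 0.16). In complex III, Cyc1 was at 11.28, 10.85, 11.08 and 10.89 in SOD1 triceps, against 11.62, 11.51, 11.95 and 11.15 in NTg triceps, overlapping by NTg replicate 4, with a change of -0.53 (SE 0.21, adjusted p = 0.258). Uqcr10 changed by -0.50 (SE 0.18, adjusted p = 0.213) and Uqcrfs1 by -0.23 (SE 0.17).

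In complex II, Sdhb was at 11.54, 11.09, 11.32 and 10.97 in SOD1 triceps, against 11.67, 11.85, 12.06 and 11.38 in NTg triceps (change -0.51, SE 0.22, adjusted p = 0.277), and Sdha changed by -0.37 (SE 0.17, adjusted p = 0.30). Again NTg replicate 4 reached into the SOD1 range. Ndufa4, named as a complex I gene but since placed in complex IV, was at 11.43, 10.87, 11.27 and 10.95 in SOD1 triceps, against 11.66, 11.94, 11.74 and 11.17 in NTg triceps (change -0.49, SE 0.17, adjusted p = 0.212). Counting it in complex IV left that median at -0.43. Ndufb9, a membrane arm subunit, changed by -0.43 (SE 0.16, adjusted p = 0.238) and Cycs by -0.44 (SE 0.18, adjusted p = 0.277).

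Markers of the muscle fibres themselves were also lower in SOD1 triceps. The 7 skeletal muscle markers were all lower, with a median of -0.64 and none called, and their linear signals summed to 27300, 16040, 29800 and 16980 on the SOD1 arrays, against 29180, 33190, 48020 and 22710 on the NTg arrays. All 9 genes of the fast-fibre sarcomere were lower too (median -0.74, none called), as were all 5 tested endothelial markers (median -0.40, none called). Their part in the members' shift was not tested.

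**Figure D2:**
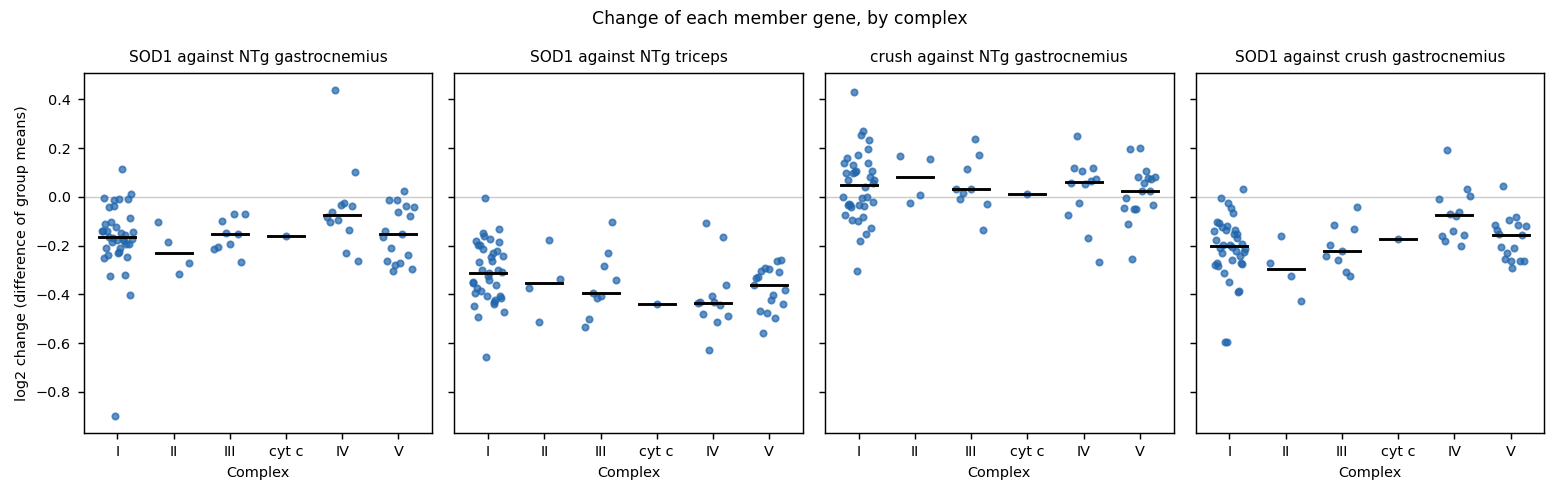
Each point is 1 member gene, placed at its log2 change (y axis) by complex (x axis), with 1 panel per comparison and a black bar at the median. In triceps all 81 points lie below 0 (74 with quantile normalization), with the bar of complex IV lowest of the 5 complexes at -0.43, while in crushed gastrocnemius the bars lie between 0.01 and 0.08.

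The difference between the muscles was tested directly as the SOD1 effect in gastrocnemius minus that in triceps. By limma no member was called, and 0% of all 4832 genes were. At an unadjusted p under 0.05 no member passed either, where 4.22% of all genes were lower and 3.93% higher. The median difference was 0.21, with 74 of 81 members above 0 (49.4% of all genes were below), but with quantile normalization it was 0.05 with 47 above 0, and the differences of Cycs, Cox5a, Cox7a2, Cox8b, Atp5a1 and Atp5b lay below 0. All 12 genes of complex IV were above 0, with a median of 0.36, and 8 of them with quantile normalization, with a median of 0.11. Atp5d had the smallest p of the 81, with a difference of 0.45 (SE 0.23, adjusted p = 0.553), and Cox6a2 a difference of 0.53 (SE 0.30, adjusted p = 0.598).

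In healthy mice no respiratory chain gene was called between the muscles. None of the 81 members passed between NTg gastrocnemius and NTg triceps by limma, where 1.03% of all genes did. Nor did any at an unadjusted p under 0.05, where 6.46% of all genes were lower and 4.51% higher. Of the 81, 43 were lower in gastrocnemius, where 56.6% of all genes were, and the median was -0.01. The differences ran from -0.38 (SE 0.29) for Cox6a1 to 0.26 (SE 0.19) for Atp5a1. In the same comparison 7 of 8 slow and oxidative fibre sarcomere genes rose in gastrocnemius, among them Myh7, the slow myosin heavy chain, by 6.16 (SE 1.07, adjusted p = 0.00513).

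After nerve crush the median of the chain was close to that of NTg gastrocnemius, and it depended on 1 array. These comparisons use the same NTg gastrocnemius arrays as those of SOD1 gastrocnemius. With all 4 crush arrays 48 of 81 members were higher and 33 lower, where 46% of all genes were lower, with a median of 0.04, where the median of all genes was 0.03. By limma none of the 81 was called, where 4.22% of all genes were, and at an unadjusted p under 0.05 only Ndufaf1 was higher, where 9.87% of all genes were, and none lower, where 10.9% were. None of the 81 had all crush arrays on one side of all NTg arrays, where 8.86% of all genes lay below and 7.47% above. The members' median difference from the NTg mean was 0.20, 0.32, 0.04 and -0.37 on the crush arrays, against -0.05, 0.01, 0.08 and -0.03 on the NTg arrays. Replicates 1 and 2 lay above the NTg range and replicate 4 below it.

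Crush replicate 4 was low in every complex, and most in complexes II (-0.69) and III (-0.59), less in complex I (-0.38), complex V (-0.31) and complex IV (-0.17). Its skeletal muscle marker sum, 51020, was the highest of the 20 arrays, while its endothelial markers, at 494.7, were the lowest, and their part in the result was not tested. Without it 73 of 81 members were higher than in NTg gastrocnemius, with a median of 0.17 and medians of 0.30 in complex II, 0.24 in complex III and 0.15 to 0.19 in complexes I, IV and V. By limma 2 members then rose, where 2.67% of all genes did, and both belong to complex I. With array weights 10 members rose and none fell, where 16.9% of all genes were called, 8.13% as higher. Among the 10 were Sdha of complex II and Uqcrc2 of complex III.

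Markers of other cells differed after crush as well. Of the 2 tested genes of Schwann cells and myelin, Mbp, a myelin protein, was at 8.42, 5.65, 6.97 and 5.49 after crush, all below the 8.88, 9.23, 8.72 and 9.08 of NTg gastrocnemius, and fell by 2.35 (SE 0.52, adjusted p = 0.0163). The other, Pmp22, changed by -1.04 (SE 0.32, adjusted p = 0.0734). The 3 genes of this list on the array summed to 180.9 to 985.4 in linear signal after crush, with replicate 4 lowest, against 976.1 to 1387 in NTg gastrocnemius, and the 7 macrophage markers to 632.6 to 1058, with replicate 4 highest, against 493 to 669.2. Without crush replicate 4 the Schwann cell median was -1.33, with Mbp still called. The macrophage median was 0.37 with all arrays and 0.48 without that array, with none of 6 called in either fit. The 5 tested endothelial markers had a median of 0.05 with all arrays (none called). Without crush replicate 4 it was 0.22, with 4 of 5 higher, and Cd34 was called (change 0.54, adjusted p = 0.036 by limma). The part of these cells in the members' values was not tested.

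Ndufaf1, an assembly factor of the complex I membrane arm, was at 8.64, 8.74, 8.94 and 7.87 after crush, against 8.21, 8.16, 8.17 and 7.94 in NTg gastrocnemius. The first 3 crush arrays lay above every NTg array and the fourth below them. The change was 0.43 (SE 0.18, adjusted p = 0.173) with all arrays and 0.65 (SE 0.14, adjusted p = 0.0104) without replicate 4. Ndufb10, a membrane arm subunit, was at 10.98, 11.36, 11.23 and 9.81 after crush, against 10.70, 10.65, 10.81 and 10.54 in NTg gastrocnemius, with changes of 0.17 (SE 0.22, adjusted p = 0.718) and, without replicate 4, 0.52 (SE 0.13, adjusted p = 0.0238). Replicate 4 was again the only crush array below the NTg group.

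Among the other genes with all 4 arrays, Ndufs4, an accessory subunit next to the catalytic core, changed by 0.23 (SE 0.11, adjusted p = 0.249) by its brightest probe set. Its other 2 probe sets changed by 0.27 (SE 0.17, adjusted p = 0.398) and -0.48 (SE 0.18, adjusted p = 0.143), so that they differed in sign. Uqcrc2, a core protein of complex III, changed by 0.24 (SE 0.18, adjusted p = 0.482). Sdha changed by 0.17 (SE 0.17, adjusted p = 0.616). Atp5e, the epsilon subunit, changed by -0.26 (SE 0.15, adjusted p = 0.359) and Cox8b, the muscle isoform of the smallest complex IV subunit, by -0.27 (SE 0.19, adjusted p = 0.447).

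**Figure D3:**
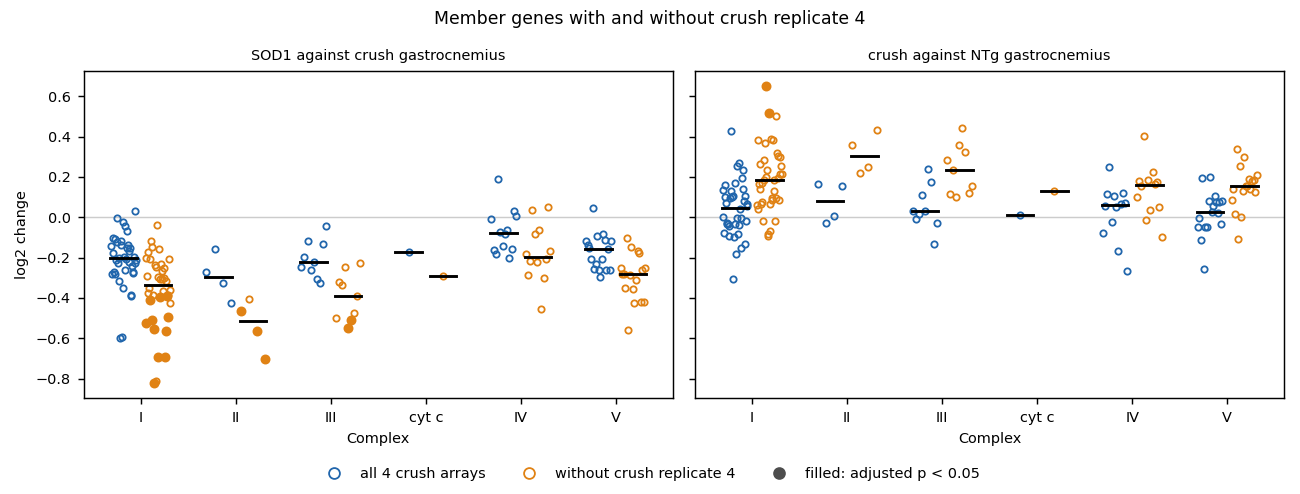
Log2 change of each member gene (y axis) by complex (x axis) for SOD1 against crush (left) and crush against NTg gastrocnemius (right), with all 4 crush arrays (blue) and without crush replicate 4 (orange), where filled points have an adjusted p under 0.05 and bars mark medians. Filled points appear only without that array, 16 on the left in complexes I, II and III and 2 on the right in complex I.

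Set against each other, SOD1 and crushed gastrocnemius showed no called member with all arrays at equal weight, and called members, all lower in SOD1 muscle, once that array was left out or the arrays were weighted. With equal weights none of the 81 members was called by limma and 0% of all genes were. A total of 76 members were lower in SOD1 muscle, where 49.9% of all genes were, with a median of -0.18, and 6 were lower at an unadjusted p under 0.05, where 5.59% of all genes were. All 6 belong to complex I. With quantile normalization 67 of 81 members were lower, with a median of -0.14. Of the 296 other genes with a mean log2 signal of at least 10, 192 were lower, with a median of -0.08, and with quantile normalization 151 were, with a median of -0.003. The fits that follow used the deposited values only. Without crush replicate 4, 16 of the 81 members fell, where 4.45% of all genes did, and none rose, where 3.95% did. They were 11 of 38 genes of complex I, 3 of 4 of complex II and 2 of 9 of complex III, and none of the 12 of complex IV or the 17 of complex V. The medians were -0.33 (complex I), -0.51 (complex II), -0.39 (complex III), -0.20 (complex IV) and -0.28 (complex V), and the difference between the complexes was not tested. Other cells differed here too: all 6 tested macrophage markers had higher means in SOD1 than in crushed muscle, with a median of 0.70 with all arrays (none called, 4 at an unadjusted p under 0.05) and 0.64 without crush replicate 4 (1 called). Their summed signal was 1033 to 1551 in SOD1 gastrocnemius, against 632.6 to 1058 after crush. Both tested Schwann cell and myelin genes had higher means, with medians of 1.24 and 0.87 in these fits and none called, and their list summed to 416.9 to 1318 in SOD1 gastrocnemius, against 180.9 to 985.4 after crush. Endothelial markers were mostly lower, as the members were. With all arrays 4 of 5 tested had lower means, with a median of -0.17 and none called. Without crush replicate 4 the median was -0.43, 1 of 5 was higher, and Cdh5 was called as lower. The endothelial list summed to 564.5 to 786 in SOD1 gastrocnemius, against 494.7 to 976.7 after crush, with replicate 4 lowest. The part of these cells in the members' values was not tested.

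SOD1 replicate 4 was low as well and stayed in that fit. In both triceps groups, too, replicate 4 was the lowest array in every complex, and why was not tested. Without replicate 4 of every group, an alternative chosen after seeing the data, 8 members fell, all of them among the 16, where 2.63% of all genes fell. They were Ndufa8, Ndufab1, Ndufaf1, Ndufb10, Ndufs1, Ndufs3, Sdhc and Sdhd. With all arrays kept but each weighted by its own spread, 26 of the 81 fell, the 16 among them, and none rose. Unlike the 16, the 26 included genes of complex V (Atp5g1, Atp5j and Atp5o), as well as Cyc1 and Uqcrfs1 of complex III. In that weighted fit 8.4% of all genes fell and 8.28% rose. These fits share most of their arrays, so the overlap of their calls is not independent support. Leaving out any single array of the 2 groups other than crush replicate 4 gave no called member.

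The 16 genes included catalytic, accessory and assembly genes of complex I. Ndufs1 was at 10.19, 10.19, 10.10 and 9.47 in SOD1 gastrocnemius, against 10.67, 10.76, 10.61 and 9.46 after crush. Replicate 4 was lowest in both groups, and the other 3 SOD1 arrays lay below the other 3 crush arrays. The change was -0.39 (SE 0.22, adjusted p = 0.467) with all arrays and -0.69 (SE 0.15, adjusted p = 0.0106) without crush replicate 4. Ndufs3, another catalytic core subunit, was at 10.89, 10.77, 10.70 and 10.49 in SOD1 gastrocnemius, against 11.25, 11.37, 11.22 and 10.55 after crush, and without crush replicate 4 fell by 0.57 (SE 0.11, adjusted p = 0.00691). Ndufaf1, at 8.02, 7.93, 8.20 and 7.66 in SOD1 gastrocnemius against the crush values given above, fell by 0.82 (SE 0.14, adjusted p = 0.00266) in that fit, the largest change of the 16. Ndufb10 fell by 0.69 (SE 0.13, adjusted p = 0.00459) and Ndufs7 by 0.49 (SE 0.14, adjusted p = 0.0354).

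Sdhd, a membrane anchor of complex II, was at 10.57, 10.45, 10.50 and 9.87 in SOD1 gastrocnemius, against 10.97, 11.20, 11.00 and 9.95 after crush, with the same split between replicate 4 and the rest. Without crush replicate 4 it fell by 0.70 (SE 0.16, adjusted p = 0.0135), Sdhc by 0.57 (SE 0.12, adjusted p = 0.0100) and Sdha by 0.46 (SE 0.13, adjusted p = 0.0394). Uqcrc1 and Uqcrc2, the core proteins of complex III, fell by 0.55 (SE 0.14) and 0.51 (SE 0.14), with adjusted p of 0.0244 and 0.0365. The other 6 were the accessory subunits Ndufa5, Ndufa8, Ndufa10, Ndufab1, Ndufb3 and Ndufs5, with changes between -0.55 and -0.39. With all 4 crush arrays at equal weight none of the 16 passed the test.

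**Figure D4:**
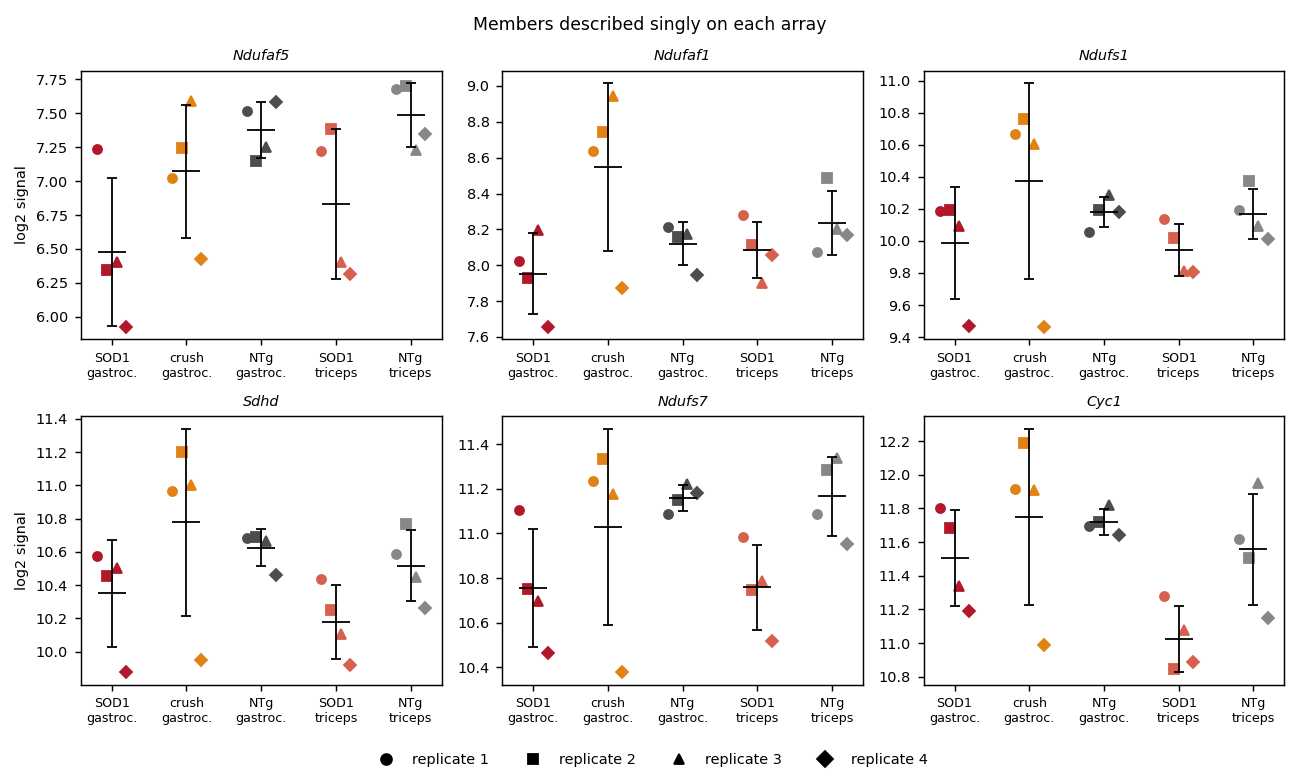
Log2 signal (y axis) of 6 members on each of the 20 arrays, by group (x axis), with the group mean and its SD in black and the marker shape giving the replicate number. Ndufaf5 is lowest in SOD1 gastrocnemius, and in Ndufaf1, Ndufs1, Sdhd, Ndufs7 and Cyc1 crush replicate 4 lies far below the other 3 crush arrays.

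The isoform pairs of complex IV were read as the difference of both log2 values on each array, so that only their changes were compared. In SOD1 gastrocnemius Cox6a2 changed by -0.10 and Cox6a1 by 0.44, so that their difference moved by -0.54. In SOD1 triceps it moved by -0.52, with Cox6a2 at -0.63 and Cox6a1 at -0.11. The differences of Cox8b and Cox8a moved by -0.37 in SOD1 gastrocnemius (Cox8b -0.26, Cox8a 0.10) and by -0.34 after crush (Cox8b -0.27, Cox8a 0.07). Cox7a1 and Cox7a2 moved by -0.10 in SOD1 gastrocnemius and -0.24 after crush. None of the 15 differences passed a two-sided exact permutation test over arrays (adjusted p between 0.762 and 0.971). In a design of 4 against 4 the smallest possible p is 0.0286 before adjustment. After adjustment over 15 tests a difference that stood alone at that p could not pass, so the test cannot decide on a shift of a single pair.

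Cox6a1 varied between the triceps arrays. It was at 8.84, 8.83, 10.10 and 9.30 in SOD1 triceps, against 8.86, 9.19, 9.04 and 10.41 in NTg triceps. The high arrays, SOD1 replicate 3 and NTg replicate 4, were also those with the highest summed adipocyte markers, at 7152 and 6864 in linear signal, against 1806 to 2193 on the other SOD1 triceps arrays and 1869 to 2985 on the other NTg triceps arrays. Among those markers Adipoq, an adipocyte hormone, had log2 signals of 11.32 and 11.11 there. Whether fat tissue had a part in the Cox6a1 values was not tested. In SOD1 gastrocnemius the adipocyte markers summed to 2684 to 3302, against 1498 to 3220 in NTg gastrocnemius.

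**Figure D5:**
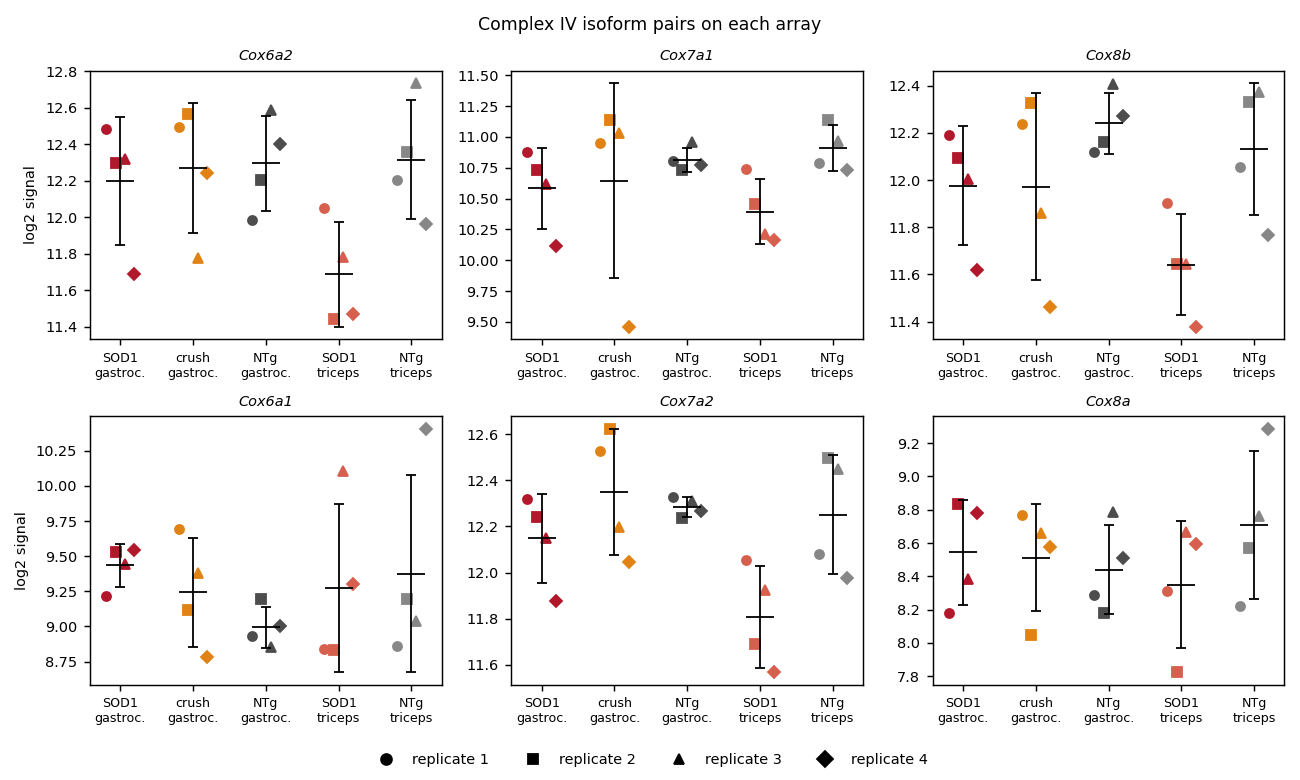
Log2 signal (y axis) of the muscle isoforms Cox6a2, Cox7a1 and Cox8b (upper row) and of their counterparts Cox6a1, Cox7a2 and Cox8a (lower row) on each array, by group (x axis), with the group mean and its SD in black. Cox6a1 shows 2 high triceps arrays at 10.10 (SOD1) and 10.41 (NTg), and all 6 genes have lower means in SOD1 than in NTg triceps, the muscle isoforms by 0.49 to 0.63 and the counterparts by 0.11 to 0.44.

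Of the genes that work beside the chain, 3 were called in SOD1 gastrocnemius: 2 of 17 carriers and electron feeders (11.8%) and 1 of 21 assembly genes outside the rule (4.76%), where 12.1% of all genes were. Gpd2, the mitochondrial glycerol phosphate dehydrogenase that feeds electrons to the quinone pool, was at 8.12, 7.57, 7.69 and 7.20 in SOD1 gastrocnemius, all below the 8.51, 8.67, 8.56 and 8.74 of NTg gastrocnemius, and fell by 0.97 (SE 0.18, adjusted p = 0.00585). Slc25a5, an ADP/ATP carrier of the inner membrane, was at 8.69, 8.80, 8.93 and 9.16 in SOD1 gastrocnemius, all above the 7.60, 7.92, 8.03 and 7.70 of NTg gastrocnemius, and rose by 1.08 (SE 0.27, adjusted p = 0.0170). These were the only 2 called of 17 tested genes in a list of inner membrane carriers and electron feeders, whose median was -0.16. Of 10 tested complex IV assembly genes outside the rule, Cox19 rose by 0.71 (SE 0.20, adjusted p = 0.0260) and no other passed. None of 11 tested assembly genes of the other complexes passed.

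None of the 12 tested regulators of mitochondrial biogenesis was called in any of the 6 comparisons. Their medians were -0.05 in SOD1 gastrocnemius, 0.00 in SOD1 triceps and 0.00 after crush. Ppargc1a, a coactivator that drives mitochondrial genes in muscle, changed by -0.29 (SE 0.22, adjusted p = 0.378) in SOD1 gastrocnemius and -0.08 (SE 0.22, adjusted p = 0.869) in SOD1 triceps. Esrra, a nuclear receptor that acts with it, changed by -0.29 (SE 0.24) and -0.25 (SE 0.24) in the same comparisons, and Tfam, which packages and transcribes mitochondrial DNA, by -0.01 (SE 0.15) and 0.13 (SE 0.15).

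Promoters were read from the RefSeq promoter table (build GRCm38.p6), as the 250 bases before the annotated start, for 70 of the 83 member genes and for 27025 genes in all. The binding motif of NRF1, a factor known for its many respiratory chain targets, was searched on both strands as GCGCA and GCGC with any 1 base between. It was present in 11 of 70 members (15.7%), against 4.23% of all genes, counting a gene when any of its promoters held it. By complex, 4 of 36 genes of complex I held it, 2 of 3 of complex II and 0 of 5 of complex III. In complex IV 1 of 10 did, and in complex V 4 of 15. The ETS motif CCGGAAG, the kind bound by GABPA, was present on either strand in 13 of 70 members (18.6%), against 7.83% of all genes. The muscle E-box CAGCTG was present in 6 of 70 (8.57%), against 14.7%, and a TATA box, searched as TATAAA on the gene's own strand, in 2.86%, against 8.94%. A match only says that these letters are in the window. Below are the promoters of 5 genes whose values are described above, 5′ to 3′ on the gene's strand, with NRF1 and ETS matches in capitals. Sdha and Sdhd are complex II genes that fell in SOD1 against crush without crush replicate 4, Ndufaf1 is an assembly factor that passed the test without that array, Ndufaf5 is the member called in SOD1 gastrocnemius, and Cox6a1 is the isoform that lay higher in SOD1 gastrocnemius.
Sdha (chr13:74350241-74350490, minus strand): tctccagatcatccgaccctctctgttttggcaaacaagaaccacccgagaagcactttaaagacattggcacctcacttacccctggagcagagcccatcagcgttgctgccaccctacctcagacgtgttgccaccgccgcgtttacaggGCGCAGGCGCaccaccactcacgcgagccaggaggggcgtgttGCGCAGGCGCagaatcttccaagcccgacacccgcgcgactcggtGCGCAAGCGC
Sdhd (chr9:50603850-50604099, minus strand): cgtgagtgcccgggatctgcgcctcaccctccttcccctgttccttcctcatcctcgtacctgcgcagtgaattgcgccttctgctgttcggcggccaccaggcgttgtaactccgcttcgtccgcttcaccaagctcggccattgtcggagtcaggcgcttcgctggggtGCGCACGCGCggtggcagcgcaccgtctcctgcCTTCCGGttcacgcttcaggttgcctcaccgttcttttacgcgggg
Ndufaf1 (chr2:119662835-119663084, minus strand): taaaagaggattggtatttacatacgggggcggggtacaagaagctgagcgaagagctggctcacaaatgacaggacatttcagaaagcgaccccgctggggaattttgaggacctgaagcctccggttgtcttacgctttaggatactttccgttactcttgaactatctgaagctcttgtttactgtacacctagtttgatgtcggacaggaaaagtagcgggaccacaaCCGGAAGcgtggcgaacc
Ndufaf5 (chr2:140170396-140170645, plus strand): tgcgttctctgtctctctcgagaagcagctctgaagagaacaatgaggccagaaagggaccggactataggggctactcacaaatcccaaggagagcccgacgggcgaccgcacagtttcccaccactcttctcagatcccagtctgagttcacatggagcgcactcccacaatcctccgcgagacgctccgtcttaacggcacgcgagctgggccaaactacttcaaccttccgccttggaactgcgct
Cox6a1 (chr5:115348959-115349208, minus strand): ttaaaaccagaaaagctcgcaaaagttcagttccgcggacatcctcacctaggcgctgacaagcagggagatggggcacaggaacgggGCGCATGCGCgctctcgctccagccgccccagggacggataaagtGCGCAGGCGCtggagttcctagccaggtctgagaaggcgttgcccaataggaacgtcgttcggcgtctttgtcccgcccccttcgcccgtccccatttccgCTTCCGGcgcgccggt
The window of Sdha holds 3 NRF1 matches, that of Cox6a1 holds 2 with 1 ETS match, that of Sdhd holds 1 of each, that of Ndufaf1 holds 1 ETS match, and that of Ndufaf5 holds neither motif. The windows of Ndufs7, Cox5b, Cox7a1, Cox7a2, Cox8a, Cox8b and Atp5g1 were also marked, are not printed, and hold neither motif. The printed promoters thus hold matches more often than those marked.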

How the data were processed

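RNA of 20 muscle samples was labelled and hybridised to Affymetrix arrays, per the labels' protocols. The deposited values are log2 signals per probe set, and MAS5 is the tool in the submitters' processing notes. The sources used here give no version, scaling target or probe set filter. Platform annotation gave 9874 of 10748 probe sets 1 gene symbol, 387 several and 487 none, and 1 symbol was required to name a gene. The probe set with the highest mean stood for a gene. Probe sets in the lowest 30% by mean (log2 below 5.88) were left out. One limma 3.58.1 fit (R 4.3.3) of 5 group means with 15 residual degrees of freedom and an intensity trend served 6 comparisons, with Benjamini-Hochberg adjustment over 7523 probe sets. It was tested on simulated data. The number of arrays limits the precision. Isoform pairs were compared by exact permutation tests (scipy 1.17.1).

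Members and lists were chosen with earlier results of these data known. Named were called members, the 2 with the smallest p per complex where fewer than 6 were called, catalytic subunits, isoform pairs and called genes of the other lists. Genes called only without crush replicate 4 were named after their values were seen. Alternatives were other scalings, filters, priors, probe set summaries, array weights, the compared arrays alone, a replicate block and leaving out arrays. Same-numbered arrays were not taken as pairs. Over all pairs of groups their deviations correlated between -0.249 and 0.622. Between the muscles of SOD1 mice the values were 0.572, -0.101, -0.037 and 0.622 for replicates 1 to 4, and between those of NTg mice -0.087 to 0.241. Whether the muscles share mice is not known, and the main fit treated all arrays as independent.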

Additional observations from a re-analysis of the deposited data

Results flagged for a closer look

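For members with named values, and for the array medians of all members and of each complex, the highest and the lowest array of each group of 4 was set against the other 3. Of 240 such checks 14 (5.83%) passed Dixon's critical value for 4 samples, and chance passes about 1 in 20 groups. None of the array medians passed. Crush replicate 4 was the lowest of its group for Atp5e (10.28, against 10.84 to 10.94 on the other 3 arrays), Cox7a1 (9.46, against 10.95 to 11.14), Ndufb5 (11.18), Ndufs1 (9.465) and Ndufs7 (10.38). SOD1 gastrocnemius replicate 4 was lowest for Ndufs1 (9.47) and Uqcrh (10.51), and replicate 1 of that group highest for Sdhc (9.85). SOD1 triceps replicate 4 was lowest for Uqcrfs1 (10.45). NTg gastrocnemius replicate 4 was lowest for Ndufs4 (9.73) and Sdhd (10.46), replicate 2 for Cycs (12.25) and replicate 1 for Uqcrc2 (10.84). NTg triceps replicate 4 was lowest for Sdha (10.74).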

How the results depend on the processing

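The median change of the members kept its sign in SOD1 gastrocnemius, SOD1 triceps and SOD1 against crush under all alternatives run. Leaving out 1 array at a time moved it between -0.21 and -0.05 in SOD1 gastrocnemius, -0.46 and -0.28 in SOD1 triceps, -0.30 and -0.09 in SOD1 against crush, -0.05 and 0.17 in crush against NTg, 0.15 and 0.31 in the difference between the muscles, and -0.11 and 0.04 between NTg muscles. Counts of called members moved more. In SOD1 gastrocnemius the count of 1 was 0 with a filter at 60%, 5 with the compared arrays alone (Ndufaf5, Ndufs7, Sdhc and Atp5g2 lower, Cox6a1 higher), 5 with array weights (Ndufaf5, Ndufs7, Ndufs3, Ndufa8 and Sdhc), 0 to 1 without single compared arrays (1 only without SOD1 replicate 1), 2 without crush replicate 4 and 0 without replicate 4 of every group. Of all genes 12.1% were called, 22.7% with the compared arrays alone, 32.9% with array weights, 18% without crush replicate 4 and 10.3% without replicate 4 of every group. Probe sets called were 902, 1768 with the compared arrays alone and 2512 with array weights. In SOD1 triceps the count of 0 was 1 without replicate 4 of every group (Atp5g1 fell by 0.69, adjusted p = 0.0304), where 1.2% of all genes were called. After crush it was 10 with array weights (12.3% of members, where 16.9% of all genes were called), 0 to 2 without single arrays and 4 without replicate 4 of every group (4.94%, where 6.27% of all genes were), all higher. In SOD1 against crush it was 26 with array weights (32.1%, where 16.7% of all genes were), 16 of them those called without crush replicate 4. With single arrays left out it was 16 without crush replicate 4, where 8.4% of all genes were called, and 0 without any other. It was 8 without replicate 4 of every group (9.88%, where 5.73% of all genes were). All of these were lower. The last fit, and that without crush replicate 4 for comparisons it is not part of, were chosen after seeing the data. The difference between the muscles and NTg gastrocnemius against triceps gave 0 under all alternatives. With the replicate number as a block the 6 counts stayed at 1 and 0, with Ndufaf5 at an adjusted p of 0.0184. In both muscle pairings 4 of 8 arrays correlated best with their own number, and between SOD1 and crushed gastrocnemius 5 of 8 did. With quantile normalization the SOD1 triceps changes of Cycs (0.01), Atp5b (0.01), Atp5a1 (-0.01) and Cox8b (-0.10) were also nearer to 0, and the median of complex IV was above 0 in SOD1 against crush (0.03) and below 0 in crush against NTg (-0.02). The cause was not tested.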
